A study of Mus musculus with 6 samples.

Results

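The transcriptome of the normal proximal tibial epiphysis was described from the 3 RNA-sequencing libraries of Control mice at 14 days of age, of 6 libraries in the series, with no comparison between lines. Its members were the 19240 of 47729 Ensembl genes (40.3%) whose normalised read count averaged 20 or more over the 3 Control libraries. The study compared mice selectively bred for long tibiae with a random-bred Control line, labelled Control (ICR), kept alongside them. Each Control library held polyA-selected RNA from the proximal tibial epiphyses of 1 mouse of generation F13, with the epiphyses of both legs pooled, and the 3 mice came from different families. No treatment was given, the sex of the mice was not stated in the labels, and the dissected piece, labelled bone, cartilage and marrow, took in the growth plate together with the bone front, the bony epiphysis and the joint surface. A level measured here is therefore an average over several tissues, in which fewer cells of a type and less RNA per cell cannot be told apart.

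In a growing long bone, chondrocytes of the growth plate pass from a resting reserve through columns of dividing cells to enlarged hypertrophic cells, and the cartilage they leave is resorbed and replaced by bone. Type II collagen and aggrecan form the cartilage matrix, type X collagen marks the hypertrophic zone, and type I collagen, bone sialoprotein and osteocalcin mark bone. Bone marrow fills the spaces that open behind the growth plate and in the bony epiphysis, where red cells, granulocytes and B cells are made.

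The deposited values were, by their steps, read counts divided by 1 factor for each library, and they were converted back to whole reads, which gave 76581954.0, 68803249.0 and 70601296.0 reads in Control 1, 2 and 3. A long transcript gives more reads than a short transcript of equal abundance, so genes were compared by a length-scaled level, which is the value divided by the length of the gene's merged exons and scaled to 1000000 in each library. Errors are SDs over the 3 libraries (n = 3), and the spread of a gene is given as the SD of log2(value + 1) or as the ratio of its highest to its lowest library. Counts of the genes of a list that were highest in a library are by normalised read count, and of all expressed genes 34.3% were highest in Control 1, 29.6% in Control 2 and 36.1% in Control 3. Length-scaled levels can order the libraries differently. *Ttc27*, with normalised read counts of 1605, 1606 and 1606, had length-scaled levels of 20.5, 21.9 and 20.2. Control 3 stood apart on sex-linked genes. The normalised read counts of *Xist* (ENSMUSG00000086503, chrX:103460366-103483254), the RNA that silences an X chromosome in female cells, were 71731, 70194 and 197 in Control 1, 2 and 3, while those of *Eif2s3y*, carried on the Y chromosome, were 26.2, 25.5 and 7001. *Ddx3y*, *Uty* and *Kdm5d*, the other Y-linked genes examined, were likewise highest in Control 3, with 39.4, 32.1 and 6723 for *Ddx3y*. A difference between Control 3 and the other 2 libraries therefore cannot be told apart from a difference between sexes or between families.

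Transcripts of blood, bone and cartilage stood at the top of the epiphyseal transcriptome. *Hbb-bs* (ENSMUSG00000052305, chr7:103826534-103828096), which encodes an adult beta globin, had the highest length-scaled level, at 70181, 59318 and 58998 in Control 1, 2 and 3. Among nuclear genes it was followed by *Sparc*, encoding the calcium-binding matrix protein osteonectin, at 19638, 20499 and 20682, and by *Hba-a2*, encoding alpha globin, at 19203, 13931 and 14351. Next came the 2 chains of type I collagen, with *Col1a1* at 12551, 13459 and 15257 and *Col1a2* at 10057, 11175 and 11417. The bone phosphoprotein gene *Spp1*, the collagenase gene *Mmp13* and the cartilage collagen gene *Col2a1* held ranks 7, 8 and 9. The other places among the first 20 went to *Hba-a1*, *Hbb-bt*, *Eef1a1* (elongation factor), *Ctsk* (the osteoclast protease cathepsin K), *S100a9* and *S100a8* (calprotectin of neutrophils), *Col10a1*, *Tmsb4x* (an actin-binding peptide), *Bglap* (osteocalcin) and 3 genes of the mitochondrial genome. Of those 3, *mt-Tq* and *mt-Ts1* encode tRNAs shorter than a sequenced fragment, and *mt-Atp8* overlaps *mt-Atp6*, so their length-scaled levels of 22757, 6264 and 5185 are uncertain.

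Long collagen transcripts moved up the order when reads were ranked without scaling for length. *Col1a2* then came first, with normalised read counts of 3058908, 3195053 and 3535391, followed by *Col1a1* with 2016431, 2032518 and 2495226, *Sparc* with 1820976, 1786702 and 1952283 and *Col2a1* (ENSMUSG00000022483, chr15:97975602-98004695) with 1344212, 1590021 and 1508984. *Hbb-bs* was the fifth, with 1319374, 1048218 and 1129114. In this order *Col11a1*, *Col11a2*, *Col5a2*, *Acan*, *Mmp9*, *Ibsp*, *Slc4a1* and *Eef2* entered the first 20, and 12 genes were among the first 20 in both orders. Expression was concentrated in few genes, since 461 genes held 50% of the length-scaled level and 925 genes held 50% of the reads. Of the 19240 genes, 78 reached a mean length-scaled level of 1000, 1588 reached 100 and 10142 reached 10, with a median of 11.4. The 3 libraries ranked the leading genes alike, sharing 19 of the first 20, 80 of the first 100 and 422 of the first 500 by length-scaled level.

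**Figure D1:**
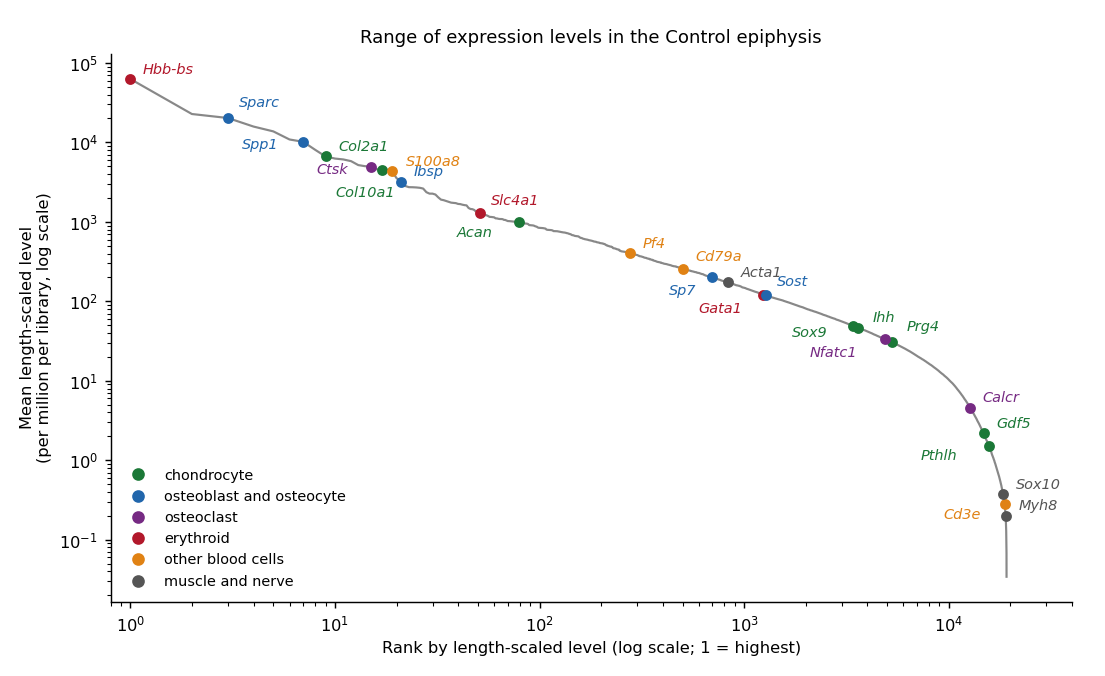
Mean length-scaled level over Control 1, 2 and 3 (log scale) against rank (log scale, 1 = highest) for every gene above the filter, with named genes coloured by tissue. Levels fell from 62832 for *Hbb-bs* to a median of 11.4, and erythroid, bone and cartilage genes held most of the first places.

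The promoters of these genes are shown because several of the highest transcripts carry the letters TATAA close to their start. These letters were searched as those of a TATA box, the motif that positions transcription at a fixed distance from the start. The last 60 bases before the start are given from RefSeq (GRCm38.p6), 5′ to 3′ on the strand of the gene, with TATAA in capitals. They are from *Hbb-bs* at chr7:103827929-103827988 (minus strand), *Hba-a2* at chr11:32296432-32296491 (plus strand), *Mmp13* at chr9:7272454-7272513 (plus strand), *Col10a1* at chr10:34389921-34389980 (plus strand), *Spp1* at chr5:104435051-104435110 (plus strand) and *S100a9* at chr3:90695722-90695781 (minus strand).
Hbb-bs: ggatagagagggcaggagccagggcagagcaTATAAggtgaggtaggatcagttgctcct
Hba-a2: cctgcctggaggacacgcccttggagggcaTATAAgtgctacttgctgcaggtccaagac
Mmp13: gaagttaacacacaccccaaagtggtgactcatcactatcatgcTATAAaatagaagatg
Col10a1: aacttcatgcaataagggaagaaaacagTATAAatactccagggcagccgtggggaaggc
Spp1: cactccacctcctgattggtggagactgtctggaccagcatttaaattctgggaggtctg
S100a9: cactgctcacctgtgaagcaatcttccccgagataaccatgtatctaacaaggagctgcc
Counted from its first base, the motif lay 29 and 30 bases before the start of the globin genes *Hbb-bs* and *Hba-a2*, 32 bases before the start of *Col10a1* and 16 before that of *Mmp13*. The match in *Mmp13* was thus not at the distance of the others. The letters TATAA were also in the windows of the globin genes *Hba-a1* and *Hbb-bt*. They were not in those of *Spp1*, *S100a9*, *Sparc*, *Col1a2*, *Eef1a1* and *Ctsk*, while *Col1a1* and *Col2a1* had no entry. The starts used for *Sparc*, *Col1a2* and *Eef1a1* lay 3103, 804 and 7427 bases from the outermost annotated start of the gene. TATAA was searched in the 50 bases before the start, and the RefSeq table held a window for 36 of the 50 nuclear protein-coding genes with the highest length-scaled level, of which 10 (27.8%) carried it on the strand of the gene. These 10 included the globin genes *Hbb-bs*, *Hbb-bt*, *Hba-a2* and *Hba-a1*, which are duplicated copies, so the matches were not all independent. The share was 5.68% at ranks 51 to 500 and 2.44% at ranks 501 to 5000. It was 3.04% over all 11591 expressed protein-coding genes with a window and 5.33% over all 27025 windows. On the other strand it was 2.78% for the first 50 genes and 2.79% for all windows. The motif GGGCGG, searched on both strands of the 250 bases before the start, was in 44.4% of the first 50 genes, 56.6% of all expressed protein-coding genes and 32.9% of all windows. A match describes letters and does not show that a factor binds there.

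Gene lists for tissues and cell programs were then summed in each library. Lists of cartilage, bone, fibrous tissue and tendon together held 10.5, 11.8 and 12% of the length-scaled level in Control 1, 2 and 3, and lists of blood and marrow cells held 13.6, 11.2 and 11.4%. By reads the skeletal lists stood well ahead, with 17.4% ± 1.07 against 3.82% ± 0.425. Globin and calprotectin transcripts are short and collagen transcripts long. The order of the lists by length-scaled level was erythroid, osteoblast, mitochondrial genome, ribosomal protein, cartilage matrix, oxidative phosphorylation, neutrophil, hypertrophic chondrocyte, translation factor, cytoskeleton and osteoclast, and from cartilage matrix to osteoclast the ranges of neighbouring lists overlapped. The place of the mitochondrial genome rested on the tRNA genes *mt-Tq*, *mt-Ts1* and *mt-Te*, whose levels are uncertain. They held 3.29, 3.18 and 2.78% of the length-scaled level, of 5.41, 5.06 and 5.2% for the list. By reads the list held 0.589%. Most markers of tissues outside the dissected piece were near 0. The 5 lists for them and for embryonic globins held 0.00519% ± 0.000707 together, of which the list with *Cela1* held 0.00311%. *Ins2* (insulin, pancreas) and *Tnp1* (spermatid chromatin) had 0 reads in each library, which allows up to 3 reads per library, for counting error alone. *Alb* (albumin, liver) had at most 1 read in a library, and *Snap25* (synapse) and *Krt14* (basal epidermis) had mean length-scaled levels of 0.0241 and 0.0505. The exceptions were *Cela1*, an elastase gene of the pancreas, at 29.7, 23.4 and 33.8, *Krt10*, a keratin gene of the epidermis, at 9.3, 6.29 and 7.05, and *Tubb3*, a neuronal tubulin gene, at 6.11, 4.75 and 5.8.

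**Figure D2:**
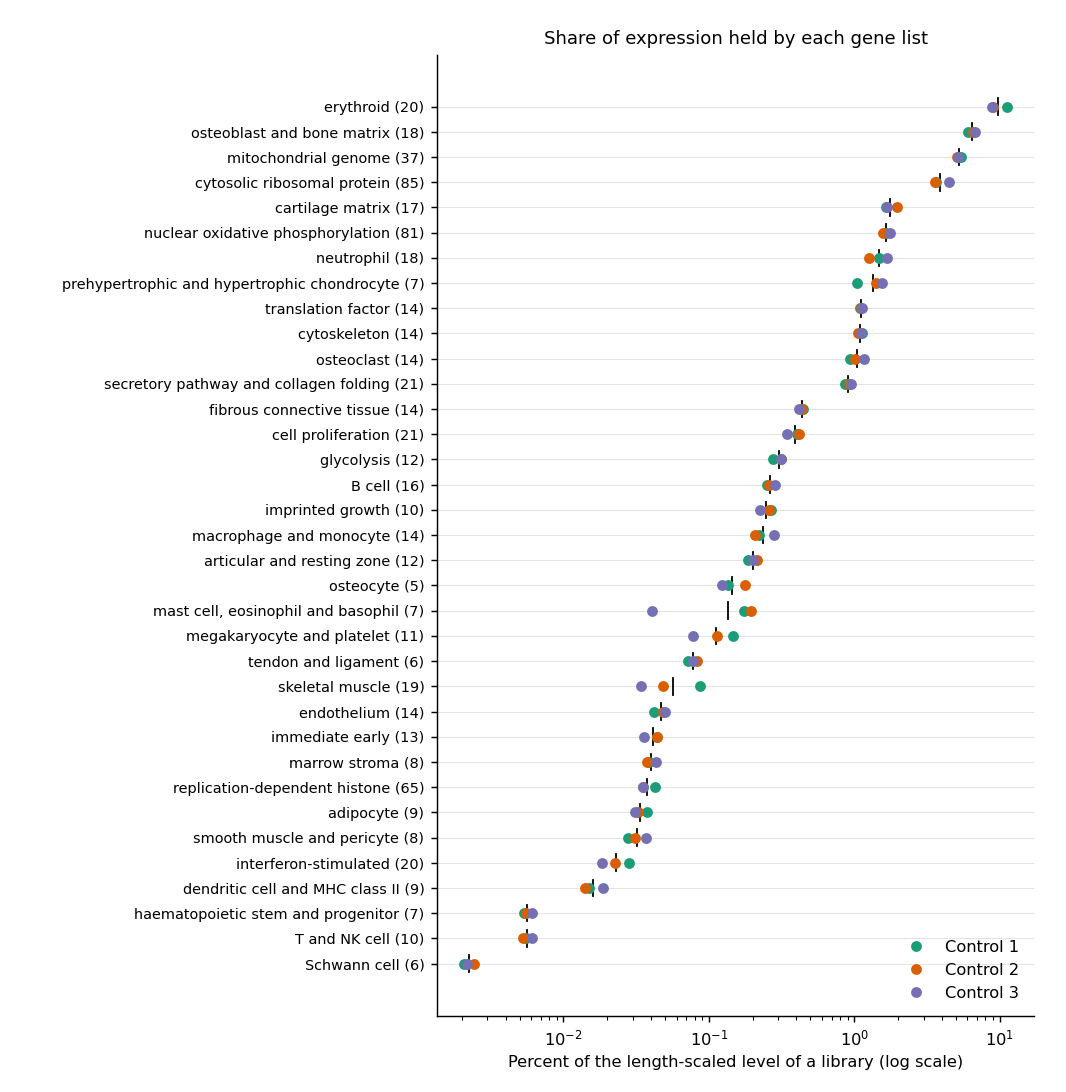
Percent of the length-scaled level of each library (log scale) held by each tissue list and each list of a program not assigned to 1 tissue, with 1 point per Control library. The erythroid list, at 11.2, 9.02 and 8.89% in Control 1, 2 and 3, and the osteoblast list, at 6.02, 6.52 and 6.77%, stood highest, and the Schwann cell list, at 0.00223%, stood lowest of the lists plotted.

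Cartilage matrix genes were all detected. Their median SD was 0.13 on the log2 scale, the same as for all genes with a mean normalised read count above 10000. The 17 genes of this list held 1.66, 1.96 and 1.69% of the length-scaled level (1.77% ± 0.166), with a median level of 766 against 11.4 for all expressed genes. *Col2a1*, whose product forms the fibrils of cartilage, led at 5941, 7476 and 6551 in Control 1, 2 and 3. The chains of types XI and IX collagen, which join and coat the type II fibril, were lower, with *Col11a2* at 1309, 1676 and 1373, *Col9a2* at 1433, 1576 and 1323 and *Col11a1* at 980.2, 1105 and 858. *Acan*, encoding the proteoglycan aggrecan, was at 904, 1147 and 919.7, so that its length-scaled level was 0.152, 0.153 and 0.14 times that of *Col2a1*. *Hapln1*, encoding the link protein that ties aggrecan to hyaluronan, was at 824, 872 and 601, *Matn3* (matrilin 3) at 842, 992 and 691 and *Matn1* (matrilin 1) at 338, 393 and 308. Control 2 was the highest library for 11 of the 17 genes, against 29.6% of all expressed genes, by a median log2 deviation of 0.11 from the gene's own mean.

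The collagen family was also taken whole, a choice made after its values were seen. Of 44 collagen chain genes, 43 passed the filter, and together they held 4.16, 4.72 and 4.62% of the length-scaled level in Control 1, 2 and 3. Type I made up 54.4, 52.2 and 57.8% of the family, type II 14.3, 15.9 and 14.2%, type X 9.92, 11 and 9.47%, type IX 7.67, 7.54 and 6.44% and type XI 5.51, 5.9 and 4.83%. The fibrous tissue collagens were minor, with 1.57, 1.27 and 1.09% for type III and 2.51, 2.21 and 2.34% for type V. *Col1a1* exceeded *Col1a2* by a ratio of 1.25, 1.2 and 1.34 in length-scaled level, where the type I molecule joins chains of both genes. The direction of this ratio depends on the length used. *Col1a2* had 12426 merged exon bases but a longest transcript of 5348, against 6563 and 5930 for *Col1a1*. By normalised read count *Col1a2* was the higher gene. The length-scaled level of *Col2a1* was 0.473, 0.555 and 0.429 times that of *Col1a1* and moved between libraries, while the ratio of *Col10a1* to *Col2a1* stayed at 0.694, 0.693 and 0.667. The size of these ratios and the shares of each type also depend on the length used. *Col2a1* had 9243 merged exon bases and a longest transcript of 5104.

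Resting zone and articular genes ranged from high to barely detected. *Clec3a*, a cartilage lectin gene, was at 833, 1147 and 835 in length-scaled level, *Ucma*, secreted by resting and upper-zone chondrocytes, at 478, 409.6 and 557, and *Scrg1* at 347, 357 and 434. *Prg4*, encoding the lubricant lubricin of the joint surface, was far lower, at 30.8, 35.3 and 25.8. Its length-scaled level was 0.0645, 0.0861 and 0.0464 times that of *Ucma*. *Erg*, a transcription factor of joint and resting cartilage, was at 34.5, 47.6 and 41.2. The defining signals *Gdf5*, which marks the forming joint, and *Pthlh*, the parathyroid hormone related protein of resting cells, were at 1.62, 2.22 and 2.72 for *Gdf5* and 1.37, 1.73 and 1.45 for *Pthlh*, close to the lower end of expressed genes.

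Hypertrophic genes were high, and *Mmp13* differed most between mice. Type X collagen, through *Col10a1* (ENSMUSG00000039462, chr10:34389981-34397085), had length-scaled levels of 4122, 5178 and 4371. *Mmp13*, encoding collagenase 3, was at 5677, 8069 and 10499, a ratio of 1.88 in normalised read count between the highest and lowest library. It was lowest in Control 1 and highest in Control 3 and carried most of the difference in the share of the list, which was 1.05, 1.4 and 1.57% of the length-scaled level. *Mmp13* is also made by osteoblasts, so it does not separate the bone front from the hypertrophic zone. *Panx3*, a channel gene of prehypertrophic cells, was at 236, 289 and 259, *Pth1r*, the receptor for the *Pthlh* product, at 331, 394 and 425, and *Ihh*, encoding Indian hedgehog, at 44.5, 44.8 and 50.0.

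Signals that pace the growth plate were expressed over a wide range. In the hedgehog and PTHrP loop, the order was *Pth1r*, *Smo* (signal transducer, 84.8), *Ihh* (46.4), *Ptch1* (receptor and target, 26.2), *Gli1* (target factor, 16.6), *Sufu* (12.5), *Gli3* (8.67), *Gli2* (7.34), *Hhip* (2.57) and *Pthlh* (1.52), all as mean length-scaled level. The ranges of *Gli3* and *Gli2* overlapped. *Ihh* exceeded *Pthlh* by 32.4, 26 and 34.4 times in length-scaled level. The list had a median SD of 0.12 on the log2 scale, against 0.19 for all expressed genes. Spread narrows with expression, and genes with a mean normalised read count of 1000 to 10000, the range of *Ihh*, *Ptch1* and *Gli1*, had 0.14.

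Of the fibroblast growth factor receptors, *Fgfr3*, which restrains growth plate division, was the highest, at 99.9, 131 and 108 in length-scaled level, and *Fgfr1* followed at 80.4, 107 and 102 with an overlapping range. *Npr2*, the receptor for C-type natriuretic peptide, was at 28, 35.6 and 32.9. Ligands were low, as *Nppc*, encoding that peptide, was at 1.19, 1.29 and 0.639, *Fgf18* at 1.81, 1.38 and 0.449 and *Fgf9* at 0.754, 1.11 and 0.707. *Npr3*, the clearance receptor for natriuretic peptides, was at 1.85, 1.57 and 0.652. *Nppc*, *Fgf18* and *Npr3* were lowest in Control 3. For *Nppc* and *Fgf18* this rests on few reads, with 15 to 30 and 12 to 52 in a library.

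Among insulin-like growth factor genes, *Igf2*, a fetal and early postnatal growth factor, led at 310.4, 375 and 350.2 in length-scaled level, and *Igf1* was at 14.7, 12.3 and 12.9. The binding proteins *Igfbp5*, *Igfbp4*, *Igfbp7* and *Igfbp3* lay between, with means of 254, 243, 118 and 84.6, of which the ranges of *Igfbp5* and *Igfbp4* overlapped. The receptors *Ghr*, for growth hormone, and *Igf1r* were at 19.5 and 11.1. *Igfbp1*, a liver product, had a mean length-scaled level of 0.0211.

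The first 4 genes of the Wnt list by length-scaled level were antagonists. *Wif1*, which binds Wnt proteins outside the cell, was the highest at 333, 319 and 257 in length-scaled level, followed by *Sost* (sclerostin) at 111, 158 and 88.6, *Frzb* at 109.9, 148 and 87.4 and *Dkk1* at 74.5, 84.1 and 68.4. *Sost* and *Frzb* overlapped, and both were highest in Control 2. The highest ligand was *Wnt5b* at 55, 53.6 and 54, and *Wnt4*, with 14, 21 and 26.9, was the next. In the bone morphogenetic protein list the first 9 genes lay within a narrow band of mean length-scaled level, from *Bmpr1a*, a receptor, at 33.6 to *Bmp5* at 12.4, with *Bmp6*, a ligand of hypertrophic cells, at 25.1 and the antagonist *Nog* at 7.86. *Bmpr1b* was at 0.203. In the transforming growth factor beta list the receptor gene *Tgfbr1* was the highest, with a mean length-scaled level of 72.2, above *Tgfbr2*, *Tgfb1* and *Tgfb3*, whose ranges overlapped around means of 63, 60.0 and 58.8.

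Transcription factors of the chondrocyte lineage sat well below the matrix genes. *Sox9*, the factor that commits cells to cartilage, was at 51.5, 54.4 and 41.2 in length-scaled level, and *Sox6* and *Sox5*, its partners, at 29.2, 29.97 and 18.5 for *Sox6* and 4.02, 4.37 and 2.77 for *Sox5*. *Runx2*, needed for hypertrophy and bone, was at 37.6, 35.1 and 28.2, and *Mef2c*, a driver of hypertrophy, at 35.4, 36.9 and 28.3. The 12 factors had median log2 deviations in normalised read count of 0.12, 0.08 and −0.19 in Control 1, 2 and 3. The matrix genes were not ordered that way, since their median deviation was highest in Control 2, at 0.11, and −0.05 in Control 3. Among patterning factors, the hindlimb factor *Pitx1* was at 13.5, 16.3 and 17.9, *Tbx4*, also of the hindlimb, at 3.96, 4.86 and 3.85 and *Tbx5*, the forelimb factor, at 0.291, 0.958 and 0.37. *Isl1*, another hindlimb factor, was at 0.677, 0.864 and 0.718, within the range of *Tbx5*, and *Hoxc4* and *Hoxc5*, Hox genes of more anterior body position, had means of 4.26 and 2.66, the first with a range overlapping that of *Tbx4*.

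**Figure D3:**
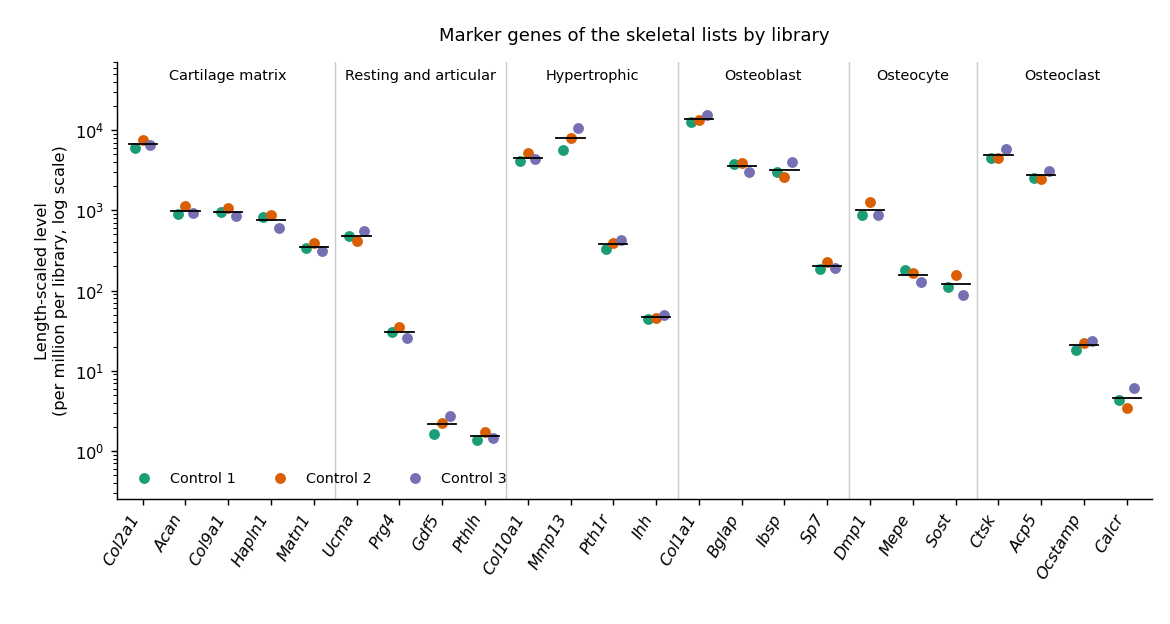
Length-scaled level (log scale) of marker genes of the skeletal lists, with 1 point per Control library and the bar at the mean of the 3 libraries. Matrix genes such as *Col1a1* (13756) and *Col2a1* (6656) stood orders of magnitude above signals such as *Pthlh* (1.52), and the libraries of each gene lay close together on this scale.

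Bone matrix genes formed the largest skeletal group. The 18 osteoblast genes, all above the filter, held 6.02, 6.52 and 6.77% of the length-scaled level (6.44% ± 0.381), and *Sparc*, *Col1a1*, *Col1a2* and *Spp1* led them. *Sparc* and *Spp1* are also made outside osteoblasts, *Spp1* by hypertrophic chondrocytes and osteoclasts. *Ibsp*, encoding bone sialoprotein, was at 3048, 2640.0 and 3952 in Control 1, 2 and 3, and *Bglap*, encoding osteocalcin, at 3818, 3871 and 2976. These 2 genes ran in opposite directions, as Control 3 had the highest *Ibsp* and the lowest *Bglap*. Because *Bglap*, *Bglap2* and *Bglap3* are near-identical, the reads may be split between them or not counted, and their sum was 4234, 4435 and 3344. *Sp7*, the osteoblast transcription factor osterix, was at 184, 227 and 192, and *Ifitm5*, a gene of mineralising osteoblasts, at 307, 287 and 317.

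Osteocyte genes were lower and more variable than osteoblast genes. *Dmp1*, encoding a mineral-binding protein of osteocytes, was at 877, 1263 and 886 in length-scaled level, *Sost* at 111, 158 and 88.6 and *Mepe* at 178, 168 and 127. Control 2 was the highest library for *Dmp1* and *Sost*, and Control 1 for *Mepe* and *Phex*. *Fgf23*, the phosphate hormone, was at 1.84, 0.691 and 0.44, a low level. The median SD of the 5 osteocyte genes was 0.27 on the log2 scale, against 0.18 for osteoblast genes. Osteoclast genes, in turn, were highest in Control 3 for 10 of 14, against 36.1% of all expressed genes. *Ctsk* was at 4534, 4483 and 5857, *Acp5*, encoding tartrate-resistant acid phosphatase, at 2563, 2489 and 3129, and *Mmp9*, encoding gelatinase B, at 1556, 2266 and 1892. *Calcr*, the calcitonin receptor of mature osteoclasts, was at 4.36, 3.41 and 6.07, and *Ocstamp*, needed for their fusion, at 18.2, 21.9 and 23.6.

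Fibrous connective tissue was the steadiest of the larger tissue lists, with 0.447, 0.439 and 0.42% of the length-scaled level and a median SD of 0.12 on the log2 scale. *Col5a2* was at 807, 771 and 808 in Control 1, 2 and 3, *Lum* (lumican) at 803, 574 and 614, *Col3a1* at 651, 598 and 504 and *Postn* (periostin) at 164, 143 and 165. Tendon genes were lower, with *Scx* (scleraxis) at 6.14, 6.07 and 7.12 and *Tnmd* (tenomodulin) at 63.5, 49 and 33.9. *Fmod*, encoding fibromodulin, was at 617, 728 and 704 and held most of that list, but cartilage makes it as well.

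Red cell genes were the largest marrow group and the highest in Control 1. The 20 erythroid genes held 11.2, 9.02 and 8.89% of the length-scaled level (9.71% ± 1.31), and 17 of 20 were highest in Control 1, against 34.3% of all expressed genes. Adult globins alone held 10.5, 8.31 and 8.37%. The other 16 erythroid genes summed to length-scaled levels of 7419, 7105 and 5215. Control 1 was thus the highest in both parts, while the order of Control 2 and 3 differed between them. *Slc4a1*, the anion exchanger of the red cell membrane, was at 1502, 1359 and 1057, and *Alas2*, the enzyme that starts haem synthesis in red cells, at 1432, 1251 and 956. The globin copies are near-identical, so the split between *Hbb-bs* and *Hbb-bt*, with ratios of 8.12, 12.9 and 14.1 in length-scaled level, and that between *Hba-a2* and *Hba-a1*, with 2.81, 2.65 and 2.31, are uncertain. Summed over copies, alpha globin was 0.33, 0.3002 and 0.326 times beta globin. How reads matching more than 1 copy were counted is not given, so this ratio is uncertain as well. The pseudogene *Hba-ps4*, not in the sum, was at 650, 661 and 849. Embryonic globins were low, with *Hbb-bh1* at 3.7, 1.65 and 1.67 and *Hbb-y* at 1.89, 1.9 and 1.33.

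Granulocyte genes were the next marrow group, at 1.49, 1.27 and 1.68% of the length-scaled level, with Control 3 highest for 15 of 18 genes, against 36.1% of all expressed genes. *S100a9* and *S100a8*, made late in neutrophil maturation, were at 4634, 3896 and 5248 for *S100a9* and 4652, 3463 and 4942 for *S100a8*. *Ngp* and *Camp*, secondary granule genes, were at 2018, 2151 and 2632 for *Ngp* and 1095, 861 and 1115 for *Camp*, and *Ltf* (lactoferrin), of the same granules, at 393, 389.6 and 439. *Mpo* (myeloperoxidase) and *Elane* (neutrophil elastase), made in promyelocytes, were at 229, 341 and 458 for *Mpo* and 212, 247 and 293 for *Elane*. Relative to calprotectin, primary granule genes were lowest in Control 1, as their summed length-scaled level was 0.0626, 0.102 and 0.102 times that of *S100a8* and *S100a9*. *Lyz2* (lysozyme) led the macrophage list at 1599, 1398 and 1937 but is made by neutrophils as well, and *Csf1r*, the receptor for macrophage colony-stimulating factor, was at 83, 98.3 and 125 and *C1qa*, of complement, at 52.6, 82.5 and 100.04. *Adgre1*, a macrophage surface receptor gene, was at 20.5, 21.8 and 19.4.

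B cell genes included those of early precursors. *Ighm*, the heavy chain of IgM, was at 851, 776 and 885 in length-scaled level, *Cd79a* (receptor signalling chain) at 266, 255 and 255 and *Vpreb1* (surrogate light chain of pre-B cells) at 232, 236 and 276. *Rag1*, of the recombinase, was at 27.2, 33.4 and 28.7, and *Vpreb1* exceeded *Ms4a1*, of later B cells, by 13.5, 19.3 and 19.5 times. T and NK cell genes were sparse by contrast, with *Cd3e* at 0.323, 0.201 and 0.315 and *Ncr1* at 2.46, 4.51 and 2.85, and the list held 0.00565% of the length-scaled level against 0.265% for B cells. *Cd74*, the invariant chain of MHC class II, was at 106, 98.1 and 129.9. Stem cell genes were low, with *Procr* at 6.74, 5.95 and 8.44 and *Mecom* at 1.58, 1.5 and 1.72.

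Most platelet genes were, like most red cell genes, highest in Control 1. *Pf4* (platelet factor 4) was at 534, 433 and 251 in length-scaled level, *Ppbp* (a platelet chemokine) at 730.2, 516 and 379 and *Itga2b* (integrin alpha IIb) at 55.3, 63.8 and 40.5, and 10 of 11 genes of the list, all but *Itga2b*, were highest in Control 1, against 34.3% of all expressed genes. In the marrow stroma, *Cxcl12*, the chemokine that retains blood progenitors, was at 236, 234 and 284, and *Lepr*, which marks stromal cells, at 30.4, 26.4 and 37.2. *Adipoq* (adiponectin) was at 81.1, 77 and 85.6, whereas *Plin1*, which coats the fat droplet, was at 4.2, 4.4 and 2.86 and *Lep* (leptin) at 0.0737, 0.144 and 0.0265. Vessel genes were present at moderate levels, with *Pecam1* at 74.8, 87.8 and 73, *Cdh5* (VE-cadherin) at 48.4, 53.9 and 56.9 and *Emcn* (endomucin) at 26.7, 29.98 and 31.5. The pericyte gene *Rgs5* was at 85.2, 90.7 and 133, and *Myh11*, of mature smooth muscle, at 2.05, 2.36 and 2.56.

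Eosinophil genes separated Control 3 from the other 2 libraries. *Prg2* (ENSMUSG00000027073, chr2:84980461-84983632), encoding the major basic protein of eosinophil granules, had normalised read counts of 30628, 31669.8 and 2585 in Control 1, 2 and 3, a ratio of 12.2 between the highest and lowest library. *Epx*, encoding eosinophil peroxidase, had 10709, 13005 and 1123. The eosinophil ribonucleases *Ear6* and *Ear10* had 1857, 2145 and 43.1 for *Ear6* and 693, 1238 and 8.85 for *Ear10*, and near-identical copies make their split uncertain. *Alox15*, *Prg3* and *Il5ra* (the interleukin 5 receptor of eosinophils), named after their values were seen, had the same pattern, with 4799, 3469 and 217 for *Alox15*, 3029, 2488 and 384 for *Prg3* and 195, 258 and 54.2 for *Il5ra*. Mast cell and basophil genes went the other way, as *Mcpt8*, a basophil protease, had 1669, 1586 and 5179 and *Cma1*, a mast cell chymase, 262, 247 and 566, and the 5 such genes summed to length-scaled levels of 92.6, 95.2 and 266. Control 3 was also the library with Y-linked reads, and the part of sex, family or dissection in the eosinophil difference was not tested.

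Skeletal muscle was present as a trace that differed between mice. The 18 muscle genes above the filter held 0.0867, 0.0481 and 0.0342% of the length-scaled level, and 16 of them were highest in Control 1, against 34.3% of all expressed genes. *Acta1*, encoding skeletal actin, had normalised read counts of 10150.4, 5605 and 3458, and *Ckm* (muscle creatine kinase) and *Myh4* (a fast myosin) had length-scaled levels of 14.4, 6.04 and 7.88 for *Ckm* and 12.2, 8.38 and 6.69 for *Myh4*. *Pvalb*, encoding parvalbumin of fast fibres, was at 183, 61.3 and 51.1. The nerve sheath factor *Sox10* was lower still, at 0.459, 0.411 and 0.262.

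The 12 lists of programs not assigned to 1 tissue held 14.9, 14.5 and 15.6% of the length-scaled level in Control 1, 2 and 3. They include proliferation, imprinted, interferon-stimulated and collagen folding genes, which not all cells express alike. The 84 expressed ribosomal protein genes held 3.65, 3.62 and 4.48% of the length-scaled level, with 58 of them highest in Control 3, against 36.1% of all expressed genes. *Rps4x* and *Rpl4*, of the small and large subunit, led at 2307, 2799 and 3027 for *Rps4x* and 2318, 2638 and 3095 for *Rpl4*. The mitochondrial genome held 5.41, 5.06 and 5.2%, of which its tRNA and rRNA genes held 3.75, 3.61 and 3.2% of the length-scaled level, and *mt-Nd1* and *mt-Cytb*, of the respiratory chain, were at 2981, 2372 and 3155 for *mt-Nd1* and 2579, 2259 and 3037 for *mt-Cytb*. The nuclear genes of oxidative phosphorylation held 1.66, 1.58 and 1.75%, led by *Atp5b* and *Atp5a1* of the ATP synthase at 895 and 839.8.

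Genes of collagen folding and secretion were high and steady. *Serpinh1*, the collagen chaperone, was at 1575, 1638 and 1950.2 in length-scaled level, *P4hb*, a subunit of prolyl hydroxylase, at 1489, 1769 and 1615, and *Calr* (calreticulin) at 999.98, 1115 and 1066. The 21 genes had a median SD of 0.10 on the log2 scale and, by normalised read count, were highest in Control 3 for 14, against 36.1% of all expressed genes. Proliferation genes ran opposite by normalised read count, with 16 of 21 highest in Control 1, against 34.3% of all expressed genes. By length-scaled level the list held 0.407, 0.415 and 0.346% in Control 1, 2 and 3, so Control 2 was the highest on that scale. *Rrm2*, of nucleotide synthesis, was at 552, 683 and 557, *Mki67*, a marker of dividing cells, at 426, 429 and 368 and *Top2a* (topoisomerase) at 273, 274 and 214. Glycolysis was led by *Ldha* (lactate dehydrogenase) at 939, 869 and 907 and *Pkm* (pyruvate kinase) at 435, 537 and 529. Among imprinted genes, the noncoding RNA *H19* was the highest, at 1703, 1429 and 1356, followed by *Igf2* and by the cell cycle inhibitor gene *Cdkn1c* at 289.6, 343 and 255.

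The highest genes outside every list were of mixed origin. *Cst3*, encoding the protease inhibitor cystatin C, had length-scaled levels of 2187, 2892 and 3122, *Cd24a*, a surface antigen of blood precursors, 2704, 1985 and 1933, and *Car2*, the carbonic anhydrase of red cells and osteoclasts, 1851, 2050.3 and 1456. *Ptma*, *Hsp90ab1*, *Calm2*, *Cpe*, *Bsg*, *Tceal9* and *Fkbp9* lay between 1086 and 1746 in mean length-scaled level. The other 5 of the first 15 were *Gm9800*, *Gm9843*, *Gm4149*, *Rps12-ps9* and *Rpl39-ps*, which are annotated as pseudogenes and whose reads may belong to their parent genes.

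Most genes differed little between the 3 mice. The median SD was 0.19 on the log2 scale, with a 10th percentile of 0.07 and a 90th of 0.56, and 71.9% of genes lay within 1.5-fold over the 3 libraries. The spread narrowed with expression, from a median SD of 0.43 at a mean normalised read count of 20 to 100 to 0.13 above 10000. Counting alone gives 0.23 in the first of these ranges and 0.01 in the second. The biological coefficient of variation, estimated from the reads by edgeR, was 0.199. Of 14666 genes averaging 100 or more, 523 (3.57%) differed by more than 2-fold between the highest and lowest library and 75 by more than 4-fold. Control 3 was the library farthest from the middle value in 239 of the 523, Control 1 in 165 and Control 2 in 119, and Control 1 and 2 differed by more than 2-fold in 173 genes, Control 1 and 3 in 326 and Control 2 and 3 in 263.

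**Figure D4:**
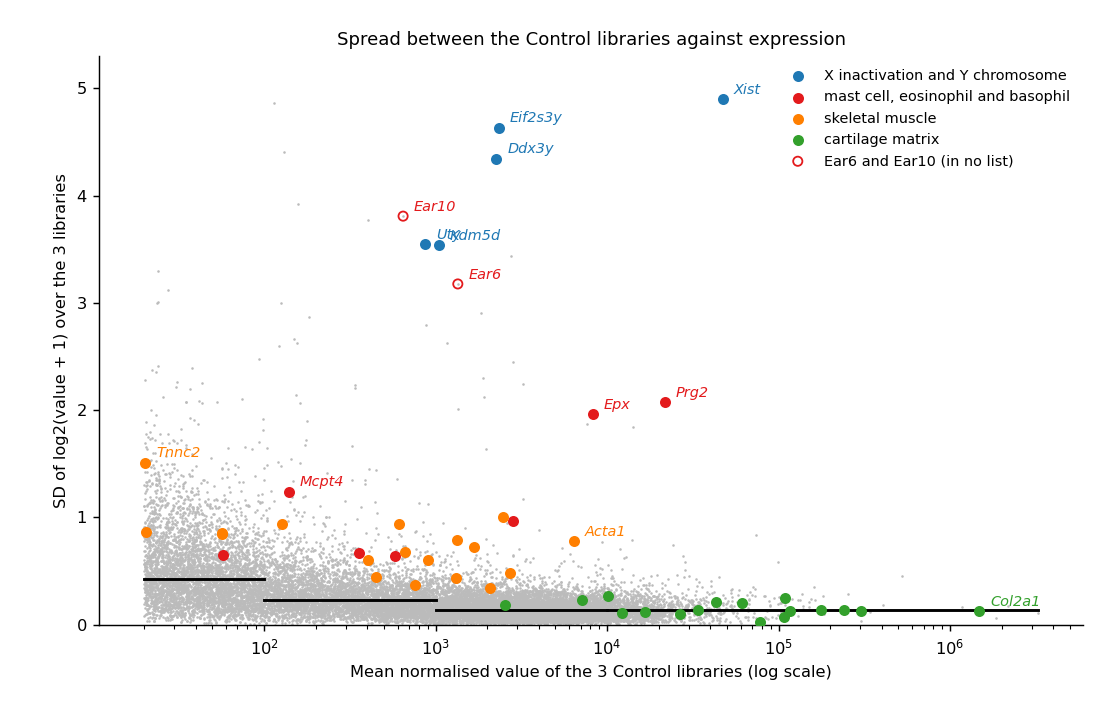
SD of log2(value + 1) over the 3 Control libraries against the mean normalised read count (log scale) for every gene above the filter, with black bars at the median SD of each range of means. *Xist* (SD 4.90), the Y-linked genes, *Ear10* (3.81), *Prg2* (2.07) and *Epx* (1.96) stood far above the bulk, all 18 muscle genes above the filter lay above the median SD of all genes, and *Col2a1* had an SD of 0.12.

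The 20 genes with the largest SD fell into few groups. *Xist*, *Eif2s3y*, *Ddx3y*, *Uty* and *Kdm5d* were 5 of them, with SDs of 4.90, 4.63, 4.35, 3.54 and 3.54 on the log2 scale, and *Gm29650*, with normalised read counts of 0, 0 and 344, followed the Y-linked order. *Ear1*, *Ear6*, *Ear10*, *Ear-ps2* and *Ear-ps9* were another 5, each lowest in Control 3. *Slc15a2*, encoding a peptide transporter, was low in Control 3 as well, at 2376, 3042 and 81.8, as were *Gm2511* at 187, 283 and 1.11 and *Foxo6os* at 275, 183 and 8.85. *Obp2a* was read almost wholly in Control 3, at 5.04, 0 and 385. *Kcne2*, a potassium channel subunit gene, was highest in Control 2 at 7.06, 278 and 80.7, and so were *Gm8420* at 11.1, 513 and 24.3, *Gm13777* at 72.6, 2531 and 890.4 and *Gm2522* at 8.07, 256 and 185. *Rps2-ps13*, a ribosomal pseudogene, had 2645, 64.3 and 5585. None of the 20 was a skeletal matrix gene. At the other end, *Ttc27* had 1605, 1606 and 1606, *Dynll2* (a dynein light chain) 7604, 7601 and 7595 and *Abcf3* 4309, 4300.3 and 4308, and *Recql5*, *Gm14335*, *Gm49339*, *Herc3*, *Spag7*, *Gpbp1l1* and *Rasgrp4* completed the 10 with the smallest SD.

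Deviations of whole lists were compared between mice, where a shared order of 3 libraries does not show that tissues moved together. Skeletal muscle, osteocyte, megakaryocyte, erythroid and interferon-stimulated genes were highest in Control 1 and lowest in Control 3 by their median log2 deviation. Adipocyte, proliferation and chondrocyte transcription factor genes had the same order. Skeletal muscle went furthest, with 0.71, −0.10 and −0.60 in Control 1, 2 and 3, followed in Control 1 by megakaryocyte genes with 0.26, −0.02 and −0.24 and erythroid genes with 0.24, −0.05 and −0.24. The 5 osteocyte genes had 0.21, 0.05 and −0.29, but their share of the length-scaled level, at 0.135, 0.176 and 0.123%, was highest in Control 2. Smooth muscle, osteoclast and endothelial genes, among other lists, showed the reverse order, with −0.15, −0.05 and 0.22 for smooth muscle and −0.07, −0.03 and 0.19 for osteoclasts. Cartilage matrix, osteoblast and fibrous tissue genes moved little, each within 0.11 of the mean in every library. Over all expressed genes the median was near 0 in each library. With 1 mouse per library, differences between mice and between dissections cannot be told apart, and the part of muscle or blood carried along in the other shifts was not tested.

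**Figure D5:**
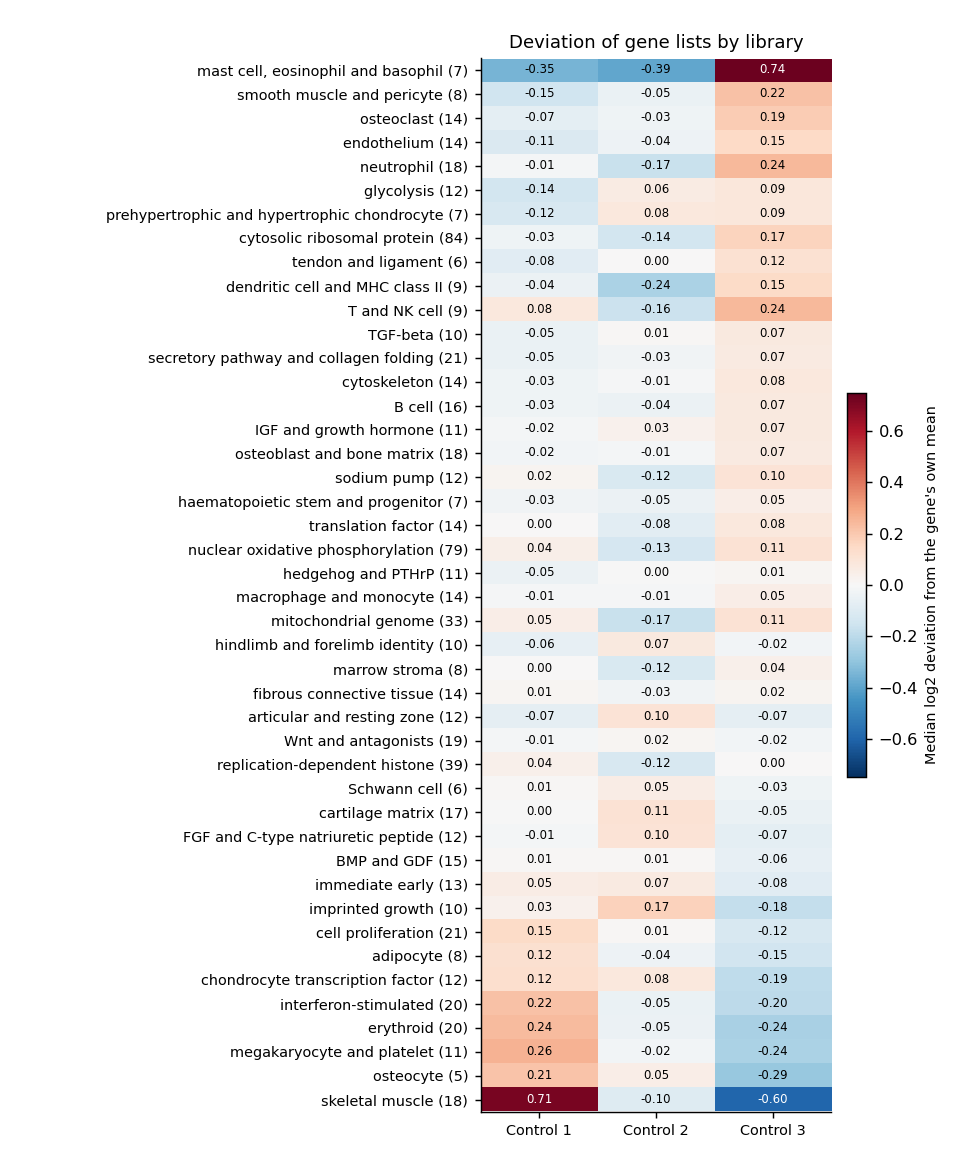
Median log2 deviation of gene lists from the gene's own mean over the 3 Control libraries, without the sex-linked list and the lists of outside tissues and embryonic globins, with lists in rows (number of genes above the filter in brackets), libraries in columns, and red above and blue below the mean. Skeletal muscle (0.71, −0.10 and −0.60) and the mast cell, eosinophil and basophil list (−0.35, −0.39 and 0.74) deviated most of the lists plotted, and in the second the eosinophil genes ran against the list's median.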

How the data were processed

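Epiphyses were sequenced as polyA RNA. Per the study's methods, the authors aligned reads to GRCm38 with HISAT2, counted them per Ensembl gene with featureCounts and used DESeq2 on them. The deposited values are a normalised signal, taken from their steps to be counts divided by 1 factor per library. Whether counting used strand is not given in the sources used here, so antisense and overlapping genes cannot be told apart. All values (100%, within 0.01) were whole multiples of 1 read, which recovered 68803249 to 76581954 reads per library. Symbols, positions (GRCm38) and merged exon lengths came from GENCODE M21 and covered all but 60 of the 19240 genes. Levels, shares and SDs were computed in Python 3.11.15 with pandas 2.3.3, and the biological coefficient of variation in R 4.3.3 with edgeR 4.0.16 on the recovered reads, by a procedure tested on simulated data. DESeq2 1.42.0 served as an alternative. No test between groups was made, as there was 1 group, and the pairs of libraries differed by far more than counting noise (reduced chi-square 43.0 to 86.8). The spread may be biological or technical.

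Alternatives were the longest transcript or no length scaling, other filters and scalings, leaving out globins and mitochondrial genes, and leaving out each library. The 50 gene lists (818 entries, 1 not in the table) and the members were chosen with earlier results of these data known. Genes are named if among the 20 highest by value or level, the 15 highest outside the lists, the defining or 4 highest genes of a list, members of a signal list where its order is given, or the 20 most and 10 least variable with a mean of at least 100, and other names were chosen after their values were seen. Many list members are not named, and a few are not reported here. Merged exons overstate the length of genes with many isoforms.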

Additional observations from a re-analysis of the deposited data

How the results depend on the processing

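No paired analysis was possible because only 1 group was described. Of 57 alternative values that left out no library, 35 moved by less than the spread between libraries (or 1.5 times, for counts). Length scaling moved most of the rest. With the longest transcript in place of merged exons, the cartilage matrix share went from 1.77% to 1.95%, the osteoblast share from 6.44% to 7.46% and the ribosomal protein share from 3.92% to 4.60%, and *Col2a1* moved from rank 9 to 7. With no length scaling these were 3.66%, 10.5%, 2.17% and rank 4, the erythroid share fell to 2.85%, the neutrophil share to 0.448% and the skeletal muscle share to 0.0286%, and 924 genes held 50% of the total in place of 461. Without globins and the mitochondrial genome, the shares were 2.07% for cartilage matrix, 7.50% for osteoblast, 0.769% for erythroid, 1.73% for neutrophil and 4.57% for ribosomal protein, and 754 genes held 50%. The median SD of 0.192 became 0.161 at a mean of at least 100 and 0.400 with no filter above 0. The biological coefficient of variation of 0.199, from a dispersion common to all genes, became 0.228 with no filter. Taken as the median over genes, it was 0.149 by DESeq2 and 0.171 by edgeR, so 0.149 and 0.199 differ in statistic as well as tool. The 7 values that kept only genes of at least 200 exon bases in the total, chosen after seeing the data, all stayed within the spread.

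Leaving out each library in turn gave 0.167 to 0.223 for the biological coefficient of variation, 1.68% to 1.83% for cartilage matrix, 6.27% to 6.64% for osteoblast, 8.96% to 10.1% for erythroid, 1.38% to 1.58% for neutrophil, 3.63% to 4.06% for ribosomal protein and 0.0411% to 0.0674% for skeletal muscle. It gave 438 to 477 genes for 50% of the level, 19208 to 19249 genes above the filter and ranks 9 to 12 for *Col2a1* (12 without Control 2). The median SD was 0.135 to 0.178 (0.135 without Control 3). An SD over 2 libraries is typically lower than over 3, so these median SDs are not comparable with that of all libraries. With 3 libraries, SDs and the order of libraries are coarse, and levels of short or near-identical genes remain uncertain.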

Other observations

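The Hox genes, which set position along the body and limb, were detected from all 4 clusters. Of 39 Hox genes taken as a whole family after their values were seen, 28 passed the filter, namely 11 of 11 in cluster a, 8 of 10 in b, 7 of 9 in c and 2 of 9 in d. *Hoxc10* led, with length-scaled levels of 25.9, 28 and 28.3 in Control 1, 2 and 3, followed by *Hoxa10* at 23.8, 25.2 and 21.4 with no overlap of the ranges, *Hoxa11* at 13, 11.7 and 11.4 and *Hoxa9* at 10.7, 13.6 and 10.4. In cluster d, *Hoxd10* and *Hoxd11* were at 0.0908, 0.212 and 0.147 for *Hoxd10* and 0.0685, 0.0686 and 0.0422 for *Hoxd11*, whereas *Hoxd8* was at 7.5, 6.48 and 6.94. The sum of the family was 0.0142, 0.0159 and 0.0143% of the length-scaled level.

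The matrix metalloproteinases, also taken whole after their values were seen, had 17 of 22 genes above the filter and held 0.81, 1.12 and 1.34% of the length-scaled level. *Mmp13* and *Mmp9* made up most of it, and *Mmp13* exceeded *Mmp9* by 3.65, 3.56 and 5.55 times. *Mmp2* (gelatinase A) was at 408, 404 and 421, *Mmp14*, the membrane-bound enzyme that activates it, at 231, 246 and 311 and *Mmp8*, the collagenase of neutrophils, at 129, 96.2 and 114. Control 3 was the highest library for *Mmp13* and *Mmp14*.

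In the sodium pump list, *Atp1b3*, a beta subunit gene, had length-scaled levels of 387, 405 and 364 in Control 1, 2 and 3. The regulator *Fxyd5* was at 88.1, 104 and 170.0 and *Fxyd2* at 3.02, 2.71 and 8.002, and both were highest in Control 3. Immediate early genes were led by *Btg2* at 209.8, 205 and 149, with *Fos* at 23.2, 28.3 and 22.4 and *Egr1* at 28.1, 29.6 and 25. *Rsad2* led the interferon-stimulated genes at 128, 75.4 and 65.6, and 14 of 20 such genes were highest in Control 1, against 34.3% of all expressed genes.

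Protein-coding genes held 87.8, 88 and 87.9% of the length-scaled level, pseudogenes 6.23, 6.2 and 6.89% and long noncoding genes 1.06, 1.08 and 0.995%.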
